A study of Arabidopsis thaliana with 6 samples.

Results

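Young siliques were compared with closed flower buds of Arabidopsis thaliana, accession Landsberg erecta, on Affymetrix ATH1 arrays. A silique is the fruit of this plant, formed by the carpels after pollination. The silique group had 2 arrays of siliques taken 2 d after pollination, from which the withering flower organs had been left out. The bud group had 2 arrays of complete closed buds taken shortly before pollination. These 4 arrays were chosen by their labels from the 6 of the study, whose other 2 arrays held open pollinated flowers. All plants were 6 weeks old and of the same accession, with no mutation beyond those of the accession itself and no treatment. They grew at 21 °C and 70% humidity with 16 h of light and 8 h of darkness. Each sample was a pool of material from 12 plants, and about 10% of the tissue was cleared for microscopy as a check of the stage. Replicate 2 of each stage came from a repeat of the whole experiment.

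A closed bud holds sepals, petals and stamens around the unfertilised carpels. In its anthers the tapetum, a nursing cell layer, makes the materials of the pollen wall and then dies while the pollen matures. After pollination the ovules become seeds, whose inner seed coat makes proanthocyanidins, and the carpel wall becomes the green wall of the fruit. The 2 stages therefore differ in which organs were harvested as well as in what each organ expresses. In such whole-organ samples, fewer cells of a type and less RNA per cell cannot be told apart.

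Signals are MAS5 values on a linear scale, brought by the authors to 1 overall level per array, and signals of different probe sets were not set against each other. The arrays had median signals of 41.5 to 48.3. On log2(signal + 10), the correlation across tested probe sets was 0.961 between the silique arrays and 0.937 between the bud arrays. It lay between 0.733 and 0.776 for a silique array and a bud array. Of 22746 probe sets other than controls, 12075 reached a signal of 50 on at least 2 of the 6 arrays and were tested. Only 6315 of them were paired with a single gene, covering 6275 genes, of which 967 had a symbol, so many well-known floral genes could not be looked up. Where only the 2 bud arrays or only the 2 silique arrays reached a signal of 50, the filter fixed the direction of the change in advance. With 2 arrays against 2, an exact two-sided permutation test cannot give a p below 0.333. The tests are therefore limma's, which pool the spread over probe sets and all 6 arrays, with Benjamini-Hochberg adjustment over all 12075. Below, signals are given with the SD over both arrays of a stage and log2 changes with the standard error from limma, each after ±. A change is silique minus bud on log2(signal + 10), a scale that understates the change of dim genes.

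Markers of the organs were examined first. Here a marker has a probe set only where the annotation paired a probe set with that gene alone. The arrays may hold further markers, since 8730 probe sets had no listed gene. The markers of anther and pollen, 5 of 10 of which had a probe set, summed to signals of 94.1 and 86.8 on the silique arrays, against 2781 and 3976 on the bud arrays. The 2 of 6 markers of young seed coat with a probe set, BAN and DFR, summed to 1413 and 1551 in siliques and to 15.4 and 16.3 in buds. The groups were thus far apart in these anther and pollen markers and in BAN and DFR, which are also among the largest rises described below. Markers of petal, stamen filament and nectary, 3 of 9, summed to 44.5 and 44.2 in siliques, against 301 and 420 in buds. Markers of pollen tube and sperm, 3 of 10, summed to 28.7 and 71.6 in siliques and to 302 and 144 in buds. The only endosperm and embryo markers with a probe set, 2 of 8, were AGL62 and IKU2. Their signals were 9.67 and 8.51 for AGL62 and 7.05 and 2.5 for IKU2 on the silique arrays, near the level of control probe sets without a target, which reached 7.95 and 7.63 there, so that the seed's inner tissues were not visible through these markers. ALC, a regulator of fruit opening and the only one of 5 fruit wall markers with a probe set, had signals of 327 and 292 in siliques, against 309 and 223 in buds, overlapping between the groups. SAG29, the only one of 5 markers of senescing organs with a probe set, differed between the silique arrays, with 56.8 and 251, against 65.7 and 79.5 in buds.

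Siliques and buds differed for many transcripts, with the larger differences mostly on the side of transcripts lower in siliques. Of the tested probe sets, 849 (7.03%) were higher and 1029 (8.52%) were lower in siliques at an adjusted p under 0.05 in limma, 15.6% in all. Every one of them had the same sign in both replicates and no overlap between the groups. Absence of overlap alone was met by 3683 probe sets (30.5%) that were higher and 3680 (30.5%) that were lower. A log2 change of at least 2 in size was reached by 129 of the higher and 368 of the lower, and one of at least 4 by 21 and 89. The median size was 0.956 among the higher and 1.54 among the lower. For 32 of the higher and 83 of the lower probe sets, both arrays of the dimmer stage were no brighter than the brightest control without a target. For such transcripts the fold is given below as a lower bound against that control level, and the fitted log2 change is no bound. The plot of change against level shows the wide lower arm of transcripts that were bright in buds and near background in siliques.

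Leaving out any 1 array lowered the residual degrees of freedom from 3 to 2. The number of calls then fell, least without buds 2. It was 307 higher and 564 lower without siliques 1, 288 and 586 without siliques 2, and 388 and 602 without buds 1, and 564 were higher without flowers 2, an array that enters only through the spread. Normalizing the arrays to a common median gave 1774 higher and 849 lower, 67.6% higher against 45.2% with the deposited scale, because it moved the median change of all tested probe sets to 0.174 on the log2 scale, against −0.000342 before.

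**Figure D1:**
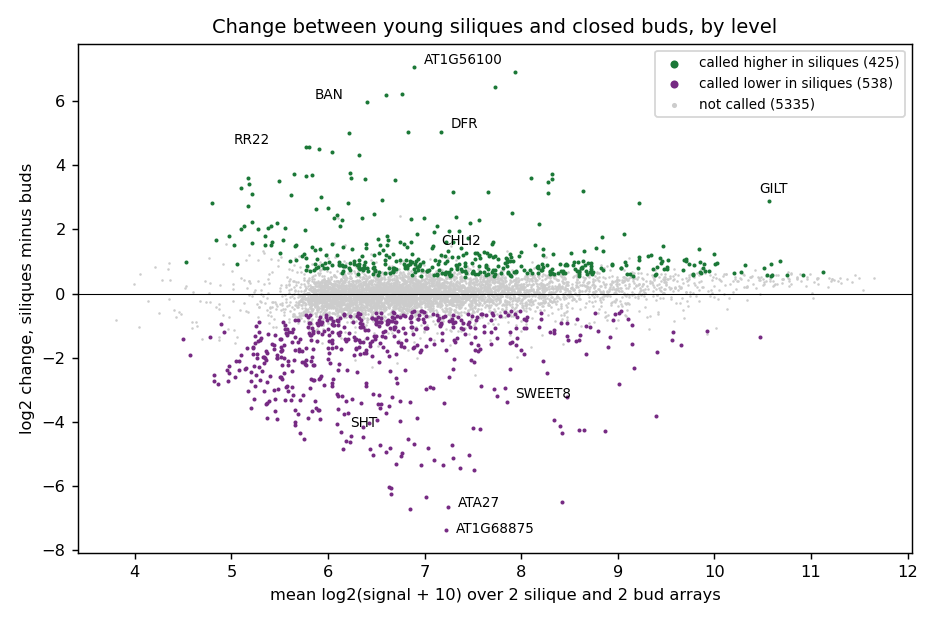
Log2 change (siliques minus buds, vertical axis) against the mean log2(signal + 10) of the 4 silique and bud arrays (horizontal axis) for tested probe sets that were paired with a single gene of the RefSeq table. Each point is a probe set: 425 called higher (green), 538 called lower (purple) and 5335 not called (grey); the lowest points, such as AT1G68875 and ATA27, reach −7.36 and −6.65, and AT1G56100 and BAN reach 7.05 and 5.97.

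Most tested genes of the tapetum and of pollen wall formation were lower in siliques, 3 of them at background there. Among all 6275 tested genes, 6.8% were higher and 8.62% lower, 15.4% in all, and these are the shares to set beside the counts of every list. The 967 genes with a symbol, from which most list members came, had 8.17% higher and 8.48% lower (16.6% in all), and those without one had 6.56% and 8.65% (15.2% in all). Of the 5 tested genes of the tapetum and pollen wall list, 4 were lower and none was higher, with a median log2 change of −4.31. Since ATA27, AT5G07230 and SHT passed the filter through the bud arrays alone, their direction was fixed in advance. ATA27, a beta-glucosidase-like gene known from anthers, had signals of 5.51 and 4.8 in siliques, against 1439 and 1581 in buds. It fell by 6.65 ± 0.70 on the log2 scale (adjusted p = 0.00165, limma), at least 194-fold lower. AT5G07230, entered among the markers as A9 of the tapetum, had 2.84 and 1.73 in siliques and 553 and 1199 in buds (−6.07 ± 0.36, adjusted p = 0.000165, limma), at least 105-fold lower. For both genes the silique arrays were at background and the bud arrays bright. SHT, which attaches hydroxycinnamic acids to spermidine for the pollen coat, had 7.77 and 3.96 in siliques, against 196 and 463 in buds (−4.31 ± 0.41, adjusted p = 0.00109, limma), at least 38.6-fold lower. SWEET8, through which sugar reaches the forming pollen wall, kept a measurable signal of 75.4 and 69.4 in siliques, against 577 and 678 in buds (−2.95 ± 0.15, adjusted p = 0.000126, limma). The fifth gene, EMS1, a receptor kinase that specifies the tapetum, did not follow: its signals were 215 and 216 in siliques and 145 and 185 in buds (0.38 ± 0.17, adjusted p = 0.184, limma).

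SPL, which starts sporogenesis in anthers and ovules, had signals of 2.10 and 1.31 in siliques, against 59.2 and 57.8 in buds (−2.55 ± 0.34, adjusted p = 0.00454, limma), at least 7.51-fold lower. Its silique arrays were at background, and its bud arrays only just passed the filter. The other tested gene of sporogenesis and meiosis, PS1, had 114 and 88.4 in siliques and 84.9 and 104 in buds, so the groups overlapped.

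Most tested genes of the maturing pollen grain were lower as well, with a smaller median change. Of 9 tested members of the pollen and pollen tube list, 6 were lower and none higher (median −2.52). Among them, sks18, AtVEX1, AGL66 and AGL104 passed the filter through the bud arrays alone, which fixed their direction in advance. MGH3, a histone H3 of sperm cells, had signals of 4.40 and 18.1 in siliques, against 206 and 103 in buds (−2.96 ± 0.40, adjusted p = 0.00478, limma). AGL66 and AGL104, MADS-box regulators of pollen maturation, averaged 5.86 ± 4.94 and 6.03 ± 3.02 in siliques (n = 2), against 94.6 ± 44.2 and 81.9 ± 14 in buds, with log2 changes of −2.69 ± 0.41 and −2.52 ± 0.29. They were the 2 of 7 tested MADS-box genes that passed. AtVEX1, named for the vegetative cell of pollen, had 30.1 and 9.41 in siliques and 284 and 297 in buds (−3.43 ± 0.41, adjusted p = 0.00279, limma). The actin gene ACT12 had 12.7 and 11.7 in siliques, against 51.5 and 58.0 in buds (−1.54 ± 0.27, adjusted p = 0.0132, limma). The myosins XIE and XIC, 2 of 3 in a list added after values were seen, fell by 2.66 ± 0.22 and 1.69 ± 0.20 on the log2 scale. sks18, of a family related to multicopper oxidases, fell by 4.34 ± 0.36 on the log2 scale (adjusted p = 0.00057, limma). Its signals were 1.99 and 1.32 in siliques, against 169 and 301 in buds, at least 28.9-fold lower. The tubulin TUA1 had 154 and 210 in siliques and 325 and 197 in buds, and the pollen tube receptor kinase ANX2 had 19.6 and 40.8 in siliques, against 61.8 and 25.4 in buds. Neither passed, and their groups overlapped on 1 array each.

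**Figure D2:**
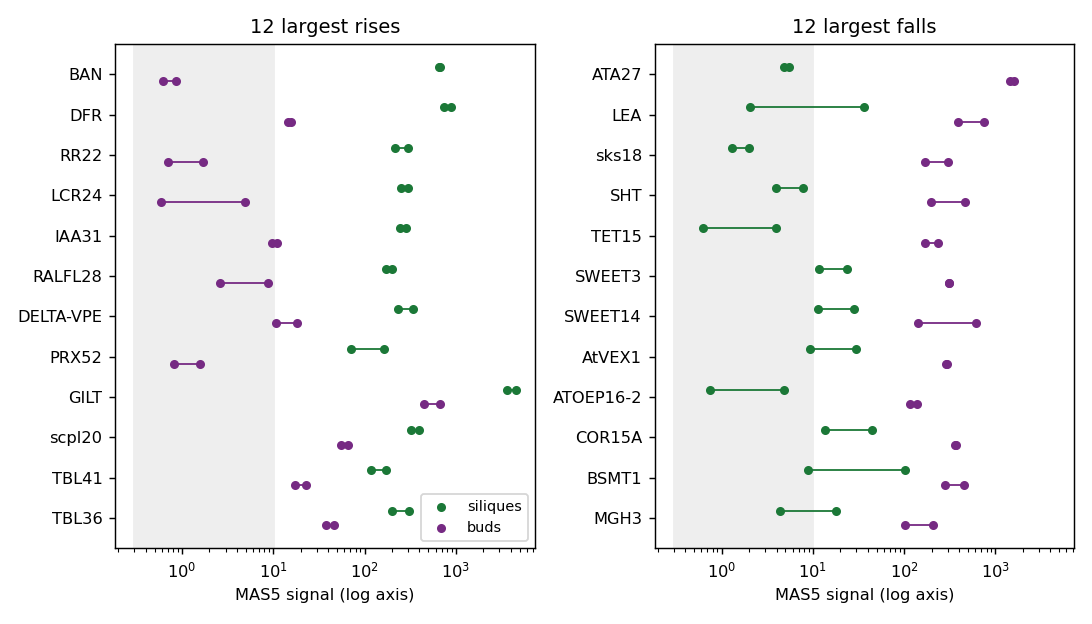
MAS5 signal (log axis) on each array for the 12 largest rises (left) and the 12 largest falls (right) among called genes with a symbol. Green points are the 2 silique arrays and purple points the 2 bud arrays of a gene, and the grey band runs up to 10.1, the brightest control without a target on these arrays; both arrays of the dimmer stage lie in the band for genes such as BAN, RR22, ATA27 and SHT, and both lie above it for others, such as GILT, scpl20, TBL36 and COR15A.

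Of 3 tested genes of petal, stamen filament and nectary maturation, BPEp and JMT were lower in siliques, where those organs had been left out, and none was higher (median −2.67). Of 3 tested jasmonate genes only JMT, which stands in both lists, was called (median −0.38). BPEp, the petal form of a basic helix-loop-helix growth regulator, had signals of 12.1 and 5.13 in siliques, against 88.4 and 127 in buds (−2.67 ± 0.27, adjusted p = 0.00139, limma). JMT, which methylates jasmonic acid, had 19.7 and 22.4 in siliques and 166 and 284 in buds (−2.87 ± 0.43, adjusted p = 0.00698, limma). In both cases no silique array came near a bud array. The call on JMT was lost without siliques 1 (adjusted p = 0.0518, limma). BSMT1, which methylates benzoic and salicylic acid, was uneven: its 8.93 and 101 in siliques stood against 277 and 449 in buds (−2.98 ± 0.76, adjusted p = 0.0441, limma), and the call was lost without siliques 1, either bud array or either flower array (adjusted p of 0.0651 to 0.127, limma). The call on BSMT1 was also lost with an offset of 1, without the filter and with cyclic loess normalization. The same held with only the arrays compared and with a robust variance prior (adjusted p of 0.0533 to 0.0671 over these settings, limma). SWEET9, the nectary sugar exporter, was dim at both stages, with 12.7 and 16.7 in siliques, against 47.0 and 9.26 in buds, and had 1272 and 1539 in open flowers.

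Of the 16 tested genes in the list of sugar transporters, 5 were lower and none higher, with a median of −0.63. With the replicate as a block, 7 were lower and 1 was higher. AtVEX1, a SWEET gene under another symbol that was lower as well (described with pollen), was not in this list and is not counted. The SWEET proteins let sugars leave cells along a gradient. SWEET3 had signals of 23.5 and 11.8 in siliques, against 307 and 311 in buds (−3.56 ± 0.22, adjusted p = 0.000195, limma). SWEET1, a glucose transporter, fell with a bright signal left in siliques, where it had 298 and 278, against 671 and 638 in buds (−1.16 ± 0.13, adjusted p = 0.00242, limma). Neither gene's silique arrays came near its bud arrays, although those of SWEET3 differed from each other. SWEET14 had 11.3 and 28.0 in siliques and an uneven 616 and 141 in buds (−3.44 ± 0.73, adjusted p = 0.0243, limma), and its call was lost without siliques 1, siliques 2 or buds 1 (adjusted p of 0.0751 to 0.125). SWEET13 had 15.1 and 52.7 in siliques, against 305 and 108 in buds, and did not pass (−2.28 ± 0.67, adjusted p = 0.0675, limma). The vacuolar hexose carrier TMT3 fell by 2.88 ± 0.25 on the log2 scale (adjusted p = 0.000717, limma), with 19.8 and 9.80 in siliques, against 181 and 158 in buds. Its relatives TMT1 and TMT2 had log2 changes of 0.31 ± 0.18 and 0.08 ± 0.26 and did not pass.

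Of the 8 tested members of the other transporter families, 3 were lower and none higher. CHX19 and CHX20, exchangers of cations for protons, averaged 21.8 ± 0.741 and 11.9 ± 5.21 in siliques (n = 2), against 210 ± 5.61 and 68.5 ± 0.855 in buds. ZIP6, of a family of zinc transporters, had 43.5 and 46.9 in siliques and 165 and 111 in buds (−1.4 ± 0.22, adjusted p = 0.00772, limma). The silique arrays were below the bud arrays for all of them, as for every probe set called lower. The call on CHX20 was lost without siliques 2, buds 1 or buds 2 (adjusted p of 0.0502 to 0.0899, limma), and that on ZIP6 without siliques 1 (0.0539).

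Genes of cold and drying, which also serve the desiccation of pollen and seeds, were lower in siliques in 2 of 5 cases, with none higher and a median of −1.09. The median was −0.437 without buds 1 and −1.89 without buds 2. LEA, listed with the late embryogenesis abundant proteins, had signals of 36.6 and 2.07 in siliques, against 746 and 385 in buds (−4.52 ± 0.64, adjusted p = 0.00539, limma). COR15A, a chloroplast protein of cold-treated leaves, had 43.9 and 13.5 in siliques and 369 and 358 in buds (−3.39 ± 0.36, adjusted p = 0.00165, limma). COR47, a dehydrin, differed as much within the buds as between the stages, with 308 and 366 in siliques, against 1272 and 411 in buds (−1.09 ± 0.46, adjusted p = 0.162, limma).

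Members of other membrane and enzyme families fell one by one. TET15 and TET11, tetraspanins, which are proteins that cross the membrane 4 times, fell by 4.10 ± 0.26 and 2.59 ± 0.29 on the log2 scale, 2 of the 8 tested members of a list added after values were seen. With the replicate as a block, 2 others of the list were called higher. TET15 was at background on both silique arrays and at least 25.6-fold lower. ATOEP16-2, a pore of the outer plastid envelope, had signals of 0.748 and 4.84 in siliques and 137 and 115 in buds (−3.42 ± 0.33, adjusted p = 0.0011, limma), at least 16.1-fold lower. Of 14 UDP-glycosyltransferases, which attach sugars to small molecules, UGT85A3, UGT74D1 and UGT71B1 were lower and none was higher. Their changes were −2.23 ± 0.51, −1.16 ± 0.23 and −0.92 ± 0.21. All 3 lost the call without siliques 1, siliques 2 or buds 1 (adjusted p of 0.0702 to 0.153, limma), UGT71B1 also without buds 2 (0.0832). In 2 families the lower calls were near the share over all genes, with medians of −0.008 and −0.18: of 7 glutathione transferases, GSTU26 was lower, with 19.0 and 6.59 in siliques, against 82.5 and 53.3 in buds, and of 8 aldehyde dehydrogenases, ALDH2C4 was lower, with 116 and 117 in siliques, against 229 and 291 in buds. The call on GSTU26 was lost without the same 3 arrays (adjusted p of 0.053 to 0.151, limma).

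Genes of seed coat pigments stood out among the rises. BAN, the anthocyanidin reductase that makes the units of proanthocyanidins, had signals of 665 and 658 in siliques, against 0.850 and 0.617 in buds. It rose by 5.97 ± 0.26 on the log2 scale (adjusted p = 0.000126, limma), at least 74.5-fold higher. DFR, the dihydroflavonol reductase upstream of it, had 748 and 894 in siliques and 14.6 and 15.7 in buds (5.04 ± 0.19, adjusted p = 0.000126, limma). The 2 reductases thus went together, with tight arrays at each stage. BAN passed the filter through the silique arrays alone, which fixed its direction in advance. Among the other tested flavonoid genes, which attach sugars to flavonols, UGT78D1 had 386 and 507 in siliques, against 135 and 285 in buds, and did not pass (1.13 ± 0.34, adjusted p = 0.0719, limma). With the replicate as a block, 3 of the 4 flavonoid genes were called higher. UGT78D2 had 66.4 and 90.1 in siliques and 74.6 and 139 in buds. Its groups overlapped.

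**Figure D3:**
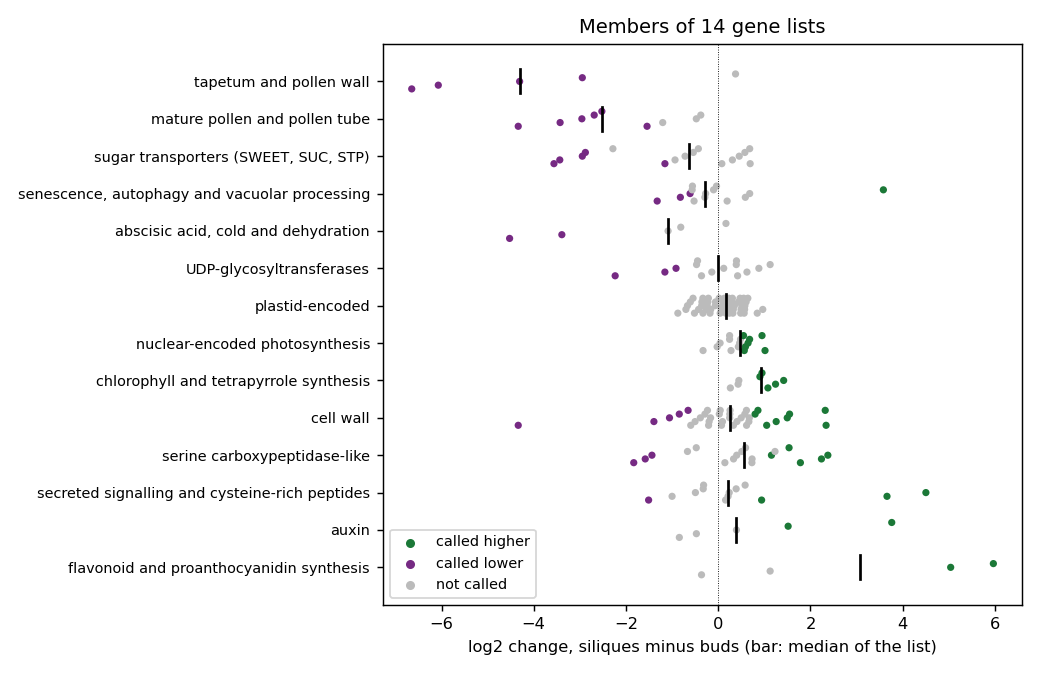
Log2 change (siliques minus buds) of each tested member of 14 gene lists, 1 point per gene, green for called higher, purple for called lower and grey for not called; the black bar is the median of the list. The lists of tapetum and pollen genes lie mostly to the left, with medians of −4.31 and −2.52, and the lists of flavonoid and chlorophyll synthesis lie mostly to the right, with medians of 3.08 and 0.93.

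Single genes of ovule, carpel and hormone lists rose, while most of their lists did not pass. RR22, a response regulator of the cytokinin pathway, had signals of 301 and 217 in siliques, against 1.68 and 0.704 in buds (4.57 ± 0.24, adjusted p = 0.000129, limma), at least 28.8-fold higher. The other tested cytokinin gene, RR16, had 23.0 and 99.4 in siliques and 144 and 148 in buds and did not pass. IAA31, of the Aux/IAA family of auxin response repressors, had 286 and 247 in siliques, against 11.1 and 9.59 in buds (3.76 ± 0.20, adjusted p = 0.000129, limma). GH3.3, which conjugates auxin to amino acids, had 437 and 501 in siliques and 179 and 138 in buds (1.52 ± 0.19, adjusted p = 0.00371, limma). These were 2 of 5 tested auxin genes, and both kept the call in each fit that left out 1 array. A relative of GH3.3 that did not pass, WES1, had 201 and 177 in siliques, against 590 and 201 in buds. None of the 3 tested gibberellin genes passed in limma, and 1 had an unadjusted p under 0.05; with the replicate as a block, 1 was called lower.

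CYP78A9, a cytochrome P450 known for its effect on fruit and seed size, had low signals of 22.2 and 22.7 in siliques, against 6.15 and 6.61 in buds (0.99 ± 0.22, adjusted p = 0.03, limma), at least 2.53-fold higher. It passed the filter through the open flowers, where it had 83 and 88.3. TCP15, a regulator of growth and of carpel form, had 315 and 359 in siliques and 207 and 217 in buds (0.64 ± 0.14, adjusted p = 0.0286, limma). YAB3, which marks the outer side of lateral organs, went the other way, with 30.2 and 37.1 in siliques, against 126 and 134 in buds (−1.68 ± 0.17, adjusted p = 0.00132, limma). The calls on CYP78A9 and TCP15 were lost without siliques 1, siliques 2, buds 1 or either flower array (adjusted p of 0.0613 to 0.143, limma), that on TCP15 also without buds 2 (0.0555), and that on YAB3 was kept in every setting. With only the silique and bud arrays in the fit, CYP78A9 and TCP15 also lost the call (adjusted p of 0.152 and 0.0588, limma). TCP15 lost it with cyclic loess normalization as well (0.0505). The outer integument gene INO had 55.1 and 76.1 in siliques, against 70.2 and 71.8 in buds, and did not pass.

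Small secreted peptides included some of the largest rises. LCR24, of a family of small cysteine-rich proteins, had signals of 298 and 254 in siliques, against 0.596 and 4.87 in buds (4.50 ± 0.23, adjusted p = 0.000126, limma), at least 30.9-fold higher. RALFL28, of the family of peptides that raise the pH outside the cell, had 200 and 170 in siliques and 8.67 and 2.63 in buds (3.66 ± 0.33, adjusted p = 0.00081, limma), at least 20.7-fold higher. Both were at background in buds on both arrays. The rise of RALFL24 was smaller, with 226 and 228 in siliques, against 101 and 128 in buds (0.94 ± 0.17, adjusted p = 0.0129, limma). LCR72 fell by 1.51 ± 0.27 on the log2 scale, with 40.7 and 67.3 in siliques and 207 and 136 in buds. The calls on RALFL24 and LCR72 were lost without siliques 1 or buds 1 (adjusted p of 0.056 to 0.0701, limma), that on RALFL24 also without siliques 2 (0.0748). In all, 3 of 13 tested peptide genes were higher and 1 was lower.

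Genes of chlorophyll synthesis were higher in siliques in 5 of 8 cases, with none lower and a median of 0.93. They cover successive steps of the path. GSA1, which makes the precursor 5-aminolevulinic acid, had signals of 453 and 516 in siliques, against 158 and 248 in buds (1.24 ± 0.23, adjusted p = 0.0157, limma). HEMB1, the next enzyme, had 533 and 601 in siliques and 236 and 352 in buds (0.95 ± 0.21, adjusted p = 0.0285, limma). HEME1 and HEME2, uroporphyrinogen decarboxylases further on, rose by 1.08 ± 0.19 and 0.90 ± 0.22 on the log2 scale. CHLI2, a subunit of the magnesium chelatase that starts the chlorophyll branch, had 212 and 209 in siliques, against 66.5 and 78.7 in buds (1.42 ± 0.18, adjusted p = 0.00353, limma). The silique arrays were above the bud arrays for each of these 5 genes, as for every probe set called higher. Of the later genes, CHLM had 816 and 848 in siliques and 575 and 642 in buds, and PORB had 280 and 272 in siliques, against 287 and 142 in buds, and neither passed. Without siliques 1 or without siliques 2, 1 of the 8 passed, and GSA1, HEMB1 and HEME1 then had adjusted p of 0.0654 to 0.136 in limma. Without buds 1 or either flower array, 3 passed.

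Nuclear genes of the photosynthetic machinery were higher by smaller amounts, with 7 of 16 called, none lower and a median of 0.47. PSAE-1, a subunit of photosystem I, had signals of 2784 and 2840 in siliques, against 1952 and 1570 in buds (0.68 ± 0.15, adjusted p = 0.0285, limma). PSAN of photosystem I and PSBY of photosystem II had changes of 0.59 ± 0.13 and 0.57 ± 0.15, and ATPC1 of the plastid ATP synthase one of 0.55 ± 0.14. CRR41, which helps to assemble the plastid NDH complex, had 98.8 and 100 in siliques and 35.5 and 54.7 in buds (1.01 ± 0.22, adjusted p = 0.0253, limma). CaS, a calcium-binding protein of the thylakoid, had 576 and 580 in siliques, against 288 and 301 in buds (0.95 ± 0.18, adjusted p = 0.0168, limma). LHCB4.1, an antenna protein, had 2472 and 3164 in siliques and 1924 and 2214 in buds and did not pass (0.44 ± 0.18, adjusted p = 0.156, limma). These calls were fragile: none was left without siliques 1 or without siliques 2, 1 without buds 1, 2 without buds 2 or either flower array, and 3 under quantile normalization. The median ran from 0.177 to 0.649 over all settings.

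The plastid's own genes gave no call. None of 52 tested plastid-encoded genes passed in limma, 8 had an unadjusted p under 0.05, and their median was 0.17. The median was −0.119 without buds 1, 0.057 without siliques 2 and 0.372 without buds 2. Without buds 2, 5 of them were higher, and without siliques 1, 1 was; with the replicate as a block, 1 was higher and 1 lower. Chloroplast proteases, chaperones and thioredoxins, a list added after values were seen, had 5 of 10 genes higher and 1 lower. Cpn60beta2, a chaperonin subunit, rose by 1.47 ± 0.33 on the log2 scale. It had 927 and 1467 in siliques and 306 and 560 in buds. HCF101, which carries iron-sulphur clusters to photosystem I, rose by 0.75 ± 0.17, with 388 and 422 in siliques, against 210 and 266 in buds. The thioredoxin ty2 rose by 0.73 ± 0.17 while TY1 fell by 0.76 ± 0.16 on the log2 scale. TY1 had 50.9 and 51.9 in siliques, against 90.5 and 98.1 in buds. These 4 calls were lost without siliques 1, siliques 2 or buds 1 (adjusted p of 0.053 to 0.157, limma), and when any 1 of these 3 arrays was left out no gene of the list was called. None of 10 genes of the Calvin cycle, starch and sucrose passed in limma, and 1 had an unadjusted p under 0.05. With the replicate as a block, 2 of the 10 were called higher. SBPASE, a Calvin cycle phosphatase, had 1533 and 1996 in siliques and 883 and 1254 in buds (0.73 ± 0.24, adjusted p = 0.0934, limma).

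Cell wall genes moved in both directions, with 8 of 36 higher, 5 lower and a median of 0.25. TBL41 and TBL36, of the family that acetylates wall polysaccharides, had the largest rises. TBL41 had signals of 170 and 116 in siliques, against 17.3 and 22.6 in buds (2.34 ± 0.22, adjusted p = 0.00102, limma), and TBL36 had 309 and 201 in siliques and 46.0 and 38.0 in buds (2.32 ± 0.22, adjusted p = 0.00107, limma). PME61, of the enzymes that remove methyl groups from pectin, had 205 and 155 in siliques, against 61.0 and 48.7 in buds (1.55 ± 0.20, adjusted p = 0.00368, limma). The expansin-like EXLA2 rose by 1.26 ± 0.22, and COB, which orients cellulose microfibrils in expanding cells, by 0.80 ± 0.16. XTH33, of the enzymes that cut and rejoin xyloglucan, rose by 1.5 ± 0.29 and was near background in buds. Among the members that fell, beside sks18, were CSLA01 and CSLC12, glucomannan and xyloglucan synthases, with changes of −1.39 ± 0.30 and −1.06 ± 0.23. Without siliques 1, 3 genes of the list were higher and 1 lower; without siliques 2, 4 and 1.

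GH9A3, of the glycosyl hydrolase family 9 to which plant cellulases belong, had 243 and 200 in siliques, against 43.5 and 66.9 in buds (1.84 ± 0.21, adjusted p = 0.00234, limma). In that list of 9 tested genes, added after values were seen, 3 were higher and 1 lower. Without siliques 1 only 1 was higher and none lower, and when any other single array was left out 3 or 4 were higher and none lower. PRX52, a peroxidase known from lignin formation, had 71.4 and 162 in siliques and 1.59 and 0.810 in buds (3.40 ± 0.36, adjusted p = 0.00177, limma), at least 12.1-fold higher. PRXR1, another peroxidase, had 1819 and 1628 in siliques, against 813 and 1053 in buds. The call on PRXR1 (0.89 ± 0.17) was lost without siliques 1, siliques 2 or buds 1 (adjusted p of 0.0586 to 0.0887, limma). They were the 2 of 4 tested lignin and phenylpropanoid genes that passed.

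On the surface, SHN3, of the transcription factors that switch on cutin and wax genes, had signals of 295 and 264 in siliques, against 73.6 and 44.2 in buds (2.10 ± 0.24, adjusted p = 0.00221, limma). WSD1, which joins fatty acids and alcohols into wax esters, had 639 and 778 in siliques and 202 and 329 in buds (1.42 ± 0.26, adjusted p = 0.0153, limma). The call on SHN3 was kept in every setting, and that on WSD1 was lost without siliques 1, siliques 2 or buds 1 (adjusted p of 0.0521 to 0.0908, limma). They were 2 of 7 tested genes of lipids, cutin and wax, with none lower.

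Of 14 tested genes of senescence, autophagy and vacuolar processing, 1 was higher, 3 were lower and 10 did not pass (median −0.28). Without siliques 1 there were 2 higher and none lower, without siliques 2, buds 1 or either flower array 1 and 1, and with the replicate as a block 1 and 5. DELTA-VPE, a vacuolar processing enzyme known from cell death in the young seed coat, had signals of 339 and 230 in siliques, against 18 and 10.8 in buds (3.58 ± 0.24, adjusted p = 0.000272, limma). BETA-VPE, its relative known from storage protein processing in seeds, fell by 1.32 ± 0.21 on the log2 scale. It had 13.6 and 14.2 in siliques and 60.8 and 40.6 in buds (adjusted p = 0.0092, limma). GAMMA-VPE, known from leaves, had 366 and 363 in siliques, within its bud values of 475 and 211. The autophagy genes ATG8F and ATG8B fell by 0.82 ± 0.20 and 0.61 ± 0.14 on the log2 scale, and both lost the call without siliques 1, siliques 2, buds 1 or either flower array (adjusted p of 0.0612 to 0.145, limma). The call on BETA-VPE was lost without siliques 1 (0.0518).

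Of 18 tested serine carboxypeptidase-like genes, a family of peptidases and acyltransferases added after values were seen, 5 were higher and 3 lower, with a median of 0.55. scpl20 had 391 and 323 in siliques, against 66.2 and 54.7 in buds (2.38 ± 0.16, adjusted p = 0.0003, limma). scpl21 had 77.9 and 63.4 in siliques and 5.97 and 8.15 in buds (2.24 ± 0.29, adjusted p = 0.00381, limma), and scpl41 rose by 1.78 ± 0.16. SCPL49 had 365 and 334 in siliques, against 1101 and 1461 in buds (−1.83 ± 0.18, adjusted p = 0.00121, limma), and scpl48 had 318 and 316 in siliques and 984 and 956 in buds (−1.58 ± 0.15, adjusted p = 0.00105, limma). These 5 genes did not overlap between the stages, which held for every called probe set, and 10 members of the family did not pass. With the replicate as a block, 8 were higher and 3 lower. Subtilases, serine proteases also added after values were seen, had 2 of 7 higher and 2 lower. Without siliques 1 or without buds 1 none was higher and 1 lower, and without siliques 2 there was 1 of each. SBT4.13 had 64.9 and 56.9 in siliques, against 448 and 583 in buds (−2.88 ± 0.17, adjusted p = 0.00018, limma), and ATSBT5.2 had 115 and 67.1 in siliques and 26.7 and 27.6 in buds (1.4 ± 0.26, adjusted p = 0.0145, limma). The call on ATSBT5.2 was lost without siliques 1 or buds 1 (adjusted p of 0.0606 and 0.0656, limma). Beta-glucosidases, likewise a list added after values were seen, had 3 of 11 higher and 2 lower, ATA27 among the lower. BGLU33 rose by 1.61 ± 0.18, and BGLU41 fell by 2.21 ± 0.24 on the log2 scale.

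GILT, named after a thiol reductase of animal lysosomes, was higher in siliques. Its signals were 3682 and 4539 in siliques, against 675 and 445 in buds (2.88 ± 0.22, adjusted p = 0.00046, limma). A pair of genes near it on chromosome 4, by their order in the RefSeq table, were also called higher: AT4G12890, with 1289 and 1015 in siliques and 94.4 and 64.4 in buds (3.71 ± 0.21, adjusted p = 0.000155, limma), and scpl20, described above. GILT is the 7th gene after AT4G12890 and scpl20 the 2nd. The neighbours on the far side did not pass: STOMAGEN, a peptide that promotes stomata, had 183 and 274 in siliques, against 103 and 135 in buds (0.87 ± 0.25, adjusted p = 0.0637, limma), and AT4G12980 had a change of −0.11 ± 0.23. Between scpl20 and GILT, AT4G12930 and UND had probe sets that did not reach the filter. AT4G12930 was dimmer in siliques, with 7.57 and 11.9, against 41.8 and 28.6 in buds. UND had 6.93 and 7.85 in siliques and 7.26 and 7.88 in buds. The other genes between them had no probe set paired with them alone, and the neighbourhood was looked at after the values were seen.

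Some of the largest fitted changes were those of loci without a symbol in the tables used, for which no function is given here. AT1G56100 had the largest fitted log2 rise, with signals of 1368 and 1350 in siliques, against 0.331 and 0.296 in buds (7.05 ± 0.15, adjusted p = 1.71e-05, limma), at least 153-fold higher. AT4G15750 had 2411 and 2920 in siliques and 13.3 and 11.7 in buds, and AT5G47350 had 1724 and 2222 in siliques, against 15.5 and 10.7 in buds. The next 3, AT3G24510, AT2G38900 and AT5G09370, had fitted changes of 6.22 ± 0.27, 6.17 ± 0.37 and 5.02 ± 0.36, with AT3G24510 at least 105-fold and AT2G38900 at least 91.7-fold higher. All 6 were bright on both silique arrays and dim on both bud arrays. On the other side, AT1G68875 had 0.540 and 2.95 in siliques, against 1875 and 1931 in buds (−7.36 ± 0.32, adjusted p = 0.000126, limma), at least 244-fold lower. AT4G37900 had 2.41 and 0.295 in siliques and 942 and 1435 in buds, at least 149-fold lower, and AT1G66850 had 55 and 10 in siliques, against 3208 and 3302 in buds. AT5G62080 and AT2G03740 had fitted changes of −6.32 ± 0.37 and −6.25 ± 0.33, the second at least 111-fold lower, and the sixth, AT5G07230, was described with the tapetum.

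Open flowers, the stage between, are given for the order of the levels only. In the order buds, flowers, siliques, ATA27 averaged 1510, 25.1 and 5.16, with flower arrays that disagreed (0.669 and 49.6), and BAN averaged 0.734, 26.6 and 661, with flower arrays of 17.3 and 35.9, both above the controls. GILT averaged 560, 2972 and 4110 and DELTA-VPE 14.4, 264 and 284, with open flowers already near the silique level. CHLI2 averaged 72.6, 82.6 and 210, close to the bud level in open flowers. JMT did not lie between, with 225, 659 and 21.1. Over all calls, the flower mean lay between the silique and bud means for 594 of the 849 higher and 690 of the 1029 lower probe sets.

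**Figure D4:**
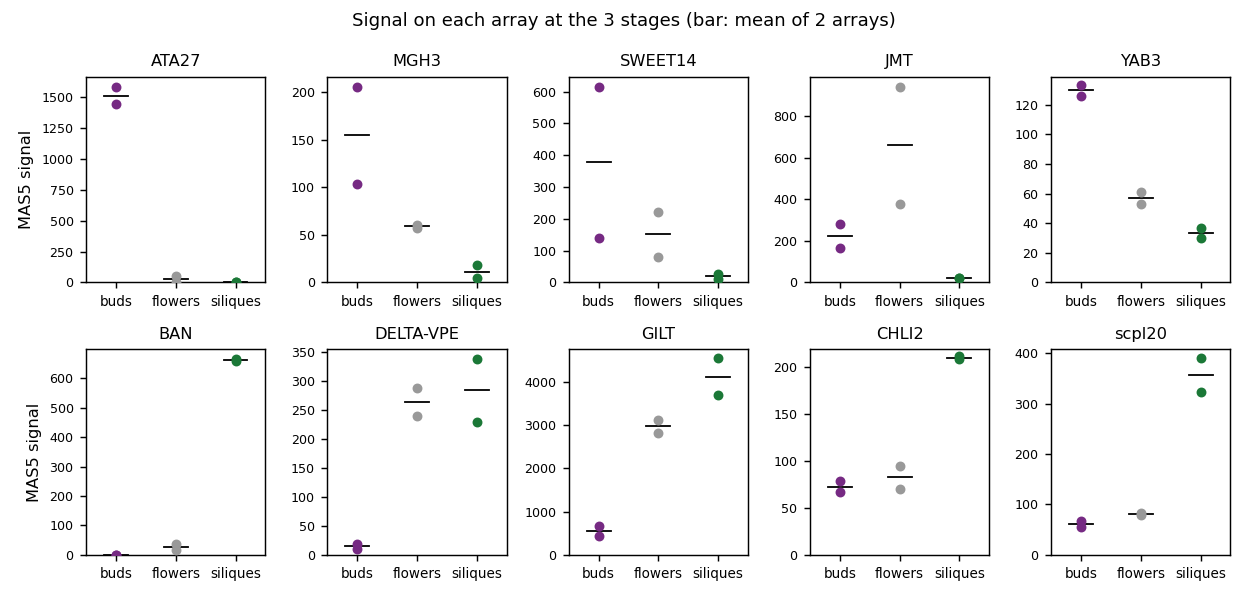
MAS5 signal on each array (points) in closed buds, open flowers and siliques, with a bar at the mean of the 2 arrays of a stage, for 10 genes on linear axes of their own that start at 0. ATA27, MGH3, SWEET14, YAB3 and JMT are dim in siliques, with JMT brightest in open flowers, and BAN, DELTA-VPE, GILT, CHLI2 and scpl20 are bright in siliques, with DELTA-VPE and GILT already bright in open flowers.

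Several lists had few or no changes. None of 5 tested genes of mitosis and DNA replication passed in limma. Their median was −0.29, and AUR1, a mitotic kinase, came closest, with 104 and 101 in siliques, against 144 and 155 in buds (−0.51 ± 0.14, adjusted p = 0.0518, limma). At an unadjusted p under 0.05 the count was 3, and with the replicate as a block 1 of them was called lower. Of 6 tested histones only MGH3 passed. The lists of floral organ identity, heat shock, MYB and NAC genes had no tested member, and those of female gametophyte, ribosomal proteins, ethylene, WRKY and homeodomain genes had 1 each, which did not pass.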

How the data were processed

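Total RNA was the extracted material and biotin the label, and the arrays were Affymetrix ATH1, 2 per stage at 3 stages. Each probe set has 1 deposited linear intensity per array, made with MAS5 per the submitters' processing notes, which give no version or settings. Every array has a 2% trimmed mean of 100.01. Precision is limited by the number of arrays. Of 22810 probe sets, 64 were controls and were left out. The platform annotation named 1 gene for 13513, several for 503 and none for 8730, and 13436 matched the RefSeq table of assembly TAIR10.1, which gave symbols. No genome build was used, and no positions or sequences are given.

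Probe sets with a signal of at least 50 on at least 2 of 6 arrays were tested on log2(signal + 10) with limma 3.58.1 in R 4.3.3 (lmFit, contrasts.fit, eBayes with an intensity trend, two-sided, Benjamini-Hochberg). All 6 arrays entered with stage as the only factor, leaving 3 residual degrees of freedom. Probe sets with an adjusted p under 0.05 were called higher or lower. A gene was represented by its brightest tested probe set. A fold is a lower bound where both arrays of the dimmer stage were no brighter than the brightest control without a target on their array (7.63 to 10.1 on the silique and bud arrays), and is then taken against that level.

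The replicate numbers pair the samples, since the labels state that the whole experiment was run a second time. The correlation of the replicate differences was −0.01 for siliques and buds, 0.34 for flowers and buds and 0.17 for siliques and flowers. The replicate was left out of the design and used as a block in an alternative. Nothing in the labels says that the pools of a replicate were of separate plants, so p-values measure the spread between these 2 samples per stage.

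The comparison and the 45 gene lists were chosen with earlier results of these data known. After the values were seen, 24 symbols whose full names show another function were removed from lists and 9 family lists were added. Lists are described by counts and medians with no test of their own. By rule, the named genes came from called genes whose arrays did not overlap. They were the 12 largest rises and 12 largest falls with a symbol, and 6 of each without one. From every list came its called members, at most 4, with the greatest change. Some of them are not described above, such as IQD19, IQD28, TBL25, TBL37, NdhN and bHLH104. Nor are the added lists of IQ-domain proteins (1 higher and 1 lower of 7) and trichome birefringence-like genes (4 higher and 2 lower of 12). Members that did not pass, called members beyond the first 4, AT4G12890 and its neighbours were chosen after their values were seen.

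In 5 simulated sets with 200 of 12075 probe sets changed, the tests found 60.2% of the 2-fold and 97.6% of the 4-fold changes, while 5.79% of what they called was unchanged. All other simulated probe sets had no stage difference, and the noise was independent with the fitted spread. In the data 15.6% of probe sets were called, so these shares need not hold there. Alternatives were other offsets, filters, normalizations, variance settings, the replicate block, the 4 arrays alone and leaving out each array. A planned count of promoter motifs was not run, as no promoter sequences were used here.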

Additional observations from a re-analysis of the deposited data

How the results depend on the processing

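Against 849 higher and 1029 lower probe sets, median normalization gave 1774 higher and 849 lower, and leaving out 1 array in turn gave 288 to 789 higher and 564 to 1019 lower. The other settings moved neither count by more than 1.5 times: 724 to 868 higher and 704 to 1158 lower over other offsets, filters, quantile and cyclic loess normalization and variance settings, 588 higher and 839 lower with only the arrays compared, and 1217 higher and 1210 lower with the replicate block, which shared 1852 calls with the fit without it. No direction of a named gene reversed in any setting run. The choice of named genes largely fixed this outcome. Their silique and bud arrays did not overlap, so only the other normalizations could have reversed a direction. Of 98 named genes, 57 kept their call in every setting, 40 lost it without at least 1 array and 17 in another setting, among them SPL (adjusted p = 0.0521, limma), CHX20 (0.0533) with an offset of 1, and PSAE-1 under quantile normalization (0.207). The cause of these losses was not tested. Precision is limited by the 2 arrays per stage, and levels at or below the controls are bounds. The planned count of promoter motifs was not run.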
